A study of Mus musculus with 8 samples.

Results

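Transcripts of fibroblast growth factors (FGFs) and their receptors were measured by bulk RNA sequencing in bone marrow mesenchymal stem/progenitor cells (MSPCs), the stromal cells that surround marrow sinusoids and supply hematopoietic cells with CXCL12 and Kit ligand. The 10 members were the genes Fgf1, Fgf2, Fgf7, Fgf10, Fgf18, Fgfr1, Fgfr2, Fgfr3, Fgfr4 and Fgfrl1. They were found by symbol among 52636 genes of the deposited count table, by a rule that lists their names. The rule uses no measured value, but the names were chosen with earlier results of these data known. The 8 libraries each came from 1 C57BL/6 mouse, with 4 control mice (CTR, Flk2-cre+ Cxcr4fl/+) and 4 conditional knockouts (cKO, Flk2-cre+ Cxcr4fl/fl), all 6 weeks old by their labels. The Flk2-driven Cre deletes Cxcr4 in hematopoietic multipotent progenitors and their progeny and not in MSPCs, and the controls carried the same Cre and 1 floxed allele. All sorted cells were CD45-, Ter119-, CD31-, CD144-, PDGFRα+ and positive for GFP expressed from the Kitl (SCF) locus. Both genotypes thus carried that reporter allele. The paper reports that cKO mice heterozygous for a Kitl-GFP allele had membrane-bound SCF and hematopoietic stem cell numbers reduced to normal levels. The comparison of cKO with CTR asked whether the niche cell transcriptome differs when the neighboring progenitors lack CXCR4.

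FGFs are secreted proteins that bind heparan sulfate on the cell surface and activate receptor tyrosine kinases. FGFR1 to FGFR4 signal through FRS2, the RAS-ERK cascade and PLCγ, while FGFRL1 has an FGF-binding ectodomain and lacks a tyrosine kinase domain. FGF7 and FGF10 belong to one subfamily, made mainly by mesenchyme and known for acting on epithelial cells through the b splice form of FGFR2, whereas FGF1 and FGF2 bind several receptors and FGF18 acts in cartilage and bone growth. In the bone marrow, FGF signaling is known to affect stromal growth and osteoblast differentiation. Counts per gene do not separate the b and c splice forms of FGFR1 to FGFR3.

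Total counts lay between 31047344 and 38216877 per library, and 18366 to 20684 genes had a count. The MSPC genes Lepr (3586 to 5039 CPM, a library's reads scaled to a fixed total) and Cxcl12 (39694 to 50718 CPM) were abundant, whereas Ptprc, which encodes CD45, reached 0.984 CPM and Pecam1, which encodes CD31, 1.61 CPM. Summed levels were 6.98 to 15.9 CPM for 8 endothelial markers (Tek at 0) and 55.3 to 117 CPM for 8 chondrocyte markers (Acan, Col9a1, Matn1 and Matn3 at 0). Apart from the limit given for undetected genes, CPM values were scaled by the TMM method. Levels of different genes were compared only as CPM per kilobase of the joined exons. Each title carries a number that the labels do not explain, and 4 libraries (CTR2, CTR4, cKO2 and cKO4) have numbers from 26 to 32 and 4 (CTR1, CTR3, cKO1 and cKO3) from 67 to 86. Both ranges hold 2 mice of each genotype, so genotype was also compared within each. For Cxcr4 itself the CTR libraries held 4 to 19 reads and the cKO libraries 0 to 12, which is no check of the labels because MSPCs are not the cells in which it was deleted.

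The ligands divided into genes with reads and genes without any, and the upstream sequences of 3 of them are shown to set the transcribed Fgf7 beside the undetected Fgf10 and Fgf18. Each sequence holds the 250 bases before the RefSeq start of the gene (GRCm38.p6), 5′ to 3′ on the gene's strand, with every CG dinucleotide in capitals. RefSeq entries were matched for 8 of the 10 members. The sequence of Fgfrl1, the member with the most regular split between title number ranges, is given with them.
Fgf7, chr2:126034408-126034657, plus strand: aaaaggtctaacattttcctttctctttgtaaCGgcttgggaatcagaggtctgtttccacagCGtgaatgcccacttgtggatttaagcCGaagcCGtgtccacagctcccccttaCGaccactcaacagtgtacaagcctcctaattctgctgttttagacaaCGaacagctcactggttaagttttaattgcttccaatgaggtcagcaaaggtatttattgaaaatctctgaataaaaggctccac
Fgf10, chr13:118714449-118714698, plus strand: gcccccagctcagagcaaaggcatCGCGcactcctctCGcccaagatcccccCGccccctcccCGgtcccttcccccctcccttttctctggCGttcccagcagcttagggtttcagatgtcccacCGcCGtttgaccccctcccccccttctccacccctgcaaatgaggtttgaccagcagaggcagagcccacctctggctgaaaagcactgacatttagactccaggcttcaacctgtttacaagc
Fgf18, chr11:33147401-33147650, minus strand: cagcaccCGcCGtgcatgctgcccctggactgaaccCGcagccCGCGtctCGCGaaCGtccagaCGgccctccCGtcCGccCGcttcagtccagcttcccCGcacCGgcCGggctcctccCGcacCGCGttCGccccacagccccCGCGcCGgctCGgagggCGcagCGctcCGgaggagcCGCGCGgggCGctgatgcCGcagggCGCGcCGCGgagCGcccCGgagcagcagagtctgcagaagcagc
Fgfrl1, chr5:108693979-108694228, plus strand: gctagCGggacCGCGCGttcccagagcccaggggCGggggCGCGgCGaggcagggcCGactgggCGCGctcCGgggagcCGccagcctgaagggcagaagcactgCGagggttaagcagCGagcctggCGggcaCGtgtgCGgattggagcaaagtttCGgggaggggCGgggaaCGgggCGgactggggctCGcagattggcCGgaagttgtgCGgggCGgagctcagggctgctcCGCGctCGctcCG

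The Fgf7 window held 6 CG dinucleotides, the median of 32851 mouse promoter windows of the same length. The Fgf10 window held 8, the Fgfrl1 window 30 and the Fgf18 window 37, the last 2 of these above the upper quartile of 16. The GC-box letters GGGCGG, searched on both strands, were found in the Fgf10, Fgf18 and Fgfrl1 windows and in 32.7% of all windows, and were not found in that of Fgf7. TATAAA, searched in the same way, was in none of these 4 and in 12.4% of all windows. Of these 4, the CG-rich windows belonged to Fgf18, a gene without a read in any library, and Fgfrl1, with reads in all. The window of the most abundant ligand was of median CG content. The other matched windows held 20 CG dinucleotides for Fgf2, 19 and 24 for Fgfr3, 15 for Fgfr4 and 2 for Fgfr2. Those of Fgf2 and Fgfr3, genes with reads in all libraries, also lay above the upper quartile. These matches describe the sequence only, since no measurement was made at these sites.

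Fgf7 supplied most ligand transcripts in MSPCs. The gene (ENSMUSG00000027208.14, chr2:126034658-126091185, plus strand, GRCm38) had 281, 248, 246 and 356 CPM in CTR1 to CTR4 and 288, 284, 239 and 246 CPM in cKO1 to cKO4. CTR4 was the highest and all other mice lay between 239 and 288 CPM, so that the genotypes overlapped. Per kilobase, Fgf7 averaged 84.2 CPM (SD 11.9, n = 8 mice) and made up 85.1% to 90.7% of the summed per-length level of all 22 mouse FGF ligand genes. Among those 22 genes, 6 had a count in every library (Fgf1, Fgf2, Fgf7, Fgf11, Fgf13 and Fgf20) and 13 had 0 counts in all 8. The remaining genes, Fgf14, Fgf22 and Fgf23, had counts in 1 or 2 libraries, with at most 11 counts.

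Fgf13 followed Fgf7 in per-length level, with a mean of 5.94 CPM per kilobase (4.16 to 9.30) and 4.81% to 9.06% of the ligand sum. Like Fgf11 (mean 2.03 CPM per kilobase), it encodes an FGF homologous factor, an intracellular protein that is not secreted and is known for binding sodium channels. The secreted Fgf1 and Fgf2 came to 1.03% to 4.84% and 0.205% to 1.72% of the ligand sum. Fgf20, also a secreted ligand, had 10 to 24 counts per library.

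Fgf10, the closest relative of Fgf7, and Fgf18 had 0 counts in every library. A limit of 3 counts per library, which a count of 0 allows, corresponds to 0.0785 to 0.0966 CPM of the unscaled totals. A single library thus allows levels up to about this limit. The 8 libraries together, with 272444468 counts, allow less. Fgfr4, the receptor best known from liver, also had 0 counts in all 8 libraries. These 3 members were not tested, and the 7 others were counted in every library.

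Fgfr2 was the most abundant of the receptor kinases. Fgfr2 (ENSMUSG00000030849.18, chromosome 7) had 996, 959, 896 and 928 CPM in CTR1 to CTR4 and 825, 1126, 885 and 776 CPM in cKO1 to cKO4. The CTR mice all lay within the range of the cKO mice, of which cKO2 was the highest and cKO4 the lowest. Per kilobase Fgfr2 averaged 89.4 CPM (SD 10.4, n = 8 mice) and made up 70.3% to 77.0% of the summed per-length level of the 4 receptor kinase genes. Fgfr1 made up 14.1% to 17.6% and Fgfr3 7.99% to 14.2% of that sum, and Fgfr4 none of it.

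Fgfr1 encodes the receptor kinase with the broadest expression in mesenchyme, and it varied least of the 7 counted members. Its levels were 199, 206, 188 and 175 CPM in CTR1 to CTR4 and 154, 197, 190 and 179 CPM in cKO1 to cKO4. The lowest mouse was cKO1, and the highest mouse exceeded it by 1.34-fold. Fgfr3, a restrainer of chondrocyte growth in the growth plate, had 75.2, 78.3, 125 and 67.5 CPM in CTR1 to CTR4 and 60.2, 89.6, 65.2 and 70.4 CPM in cKO1 to cKO4. CTR3 stood above all other mice for Fgfr3, and the remaining 3 CTR mice lay within the cKO range.

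Fgfrl1, whose product binds FGFs without a kinase domain, had 119, 87.5, 119 and 89.1 CPM in CTR1 to CTR4 and 141, 87.6, 120 and 88.5 CPM in cKO1 to cKO4. The values formed a low set of 4 mice and a high set of 4 mice, with both genotypes in each, and the sets coincided with the title number ranges. Per kilobase, Fgfrl1 averaged 38.3 CPM (31.5 to 50.5), above Fgfr1 (18.8 CPM, 15.6 to 20.9) and Fgfr3 (11.03 CPM, 8.41 to 17.5).

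**Figure D1:**
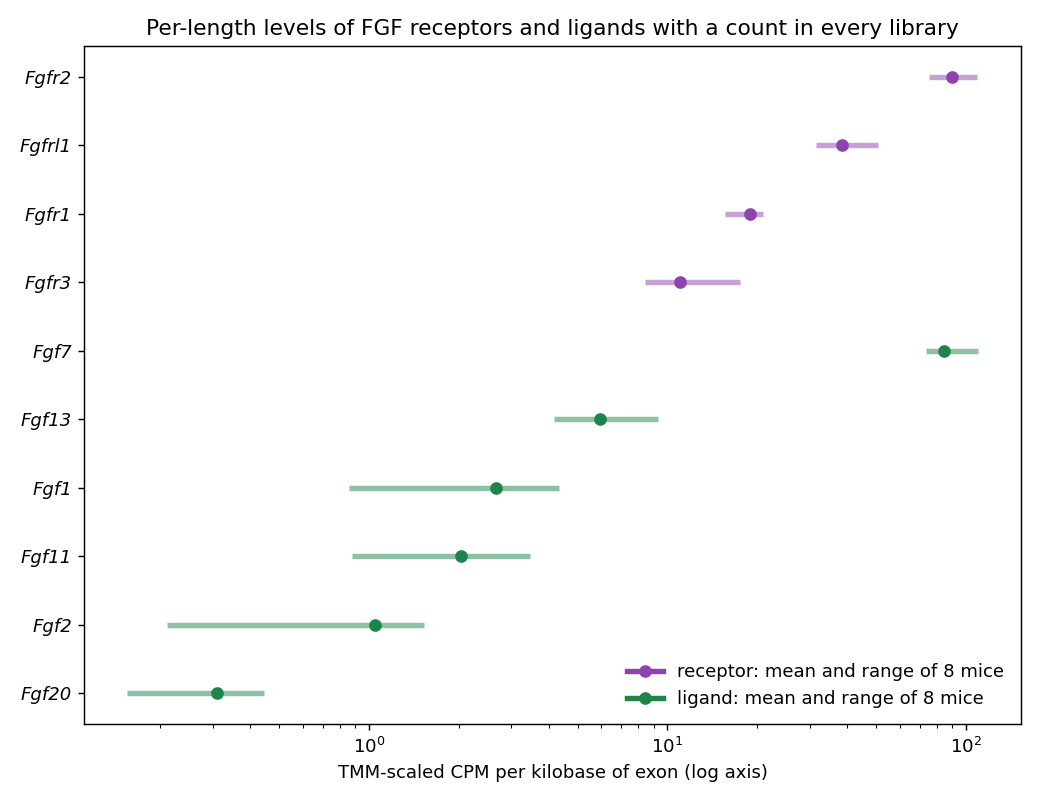
Mean (point) and range over 8 mice (bar) of TMM-scaled CPM per kilobase of exon, on a log axis, for FGF receptor genes (purple) and ligand genes (green) with a count in every library. Fgfr2 and Fgf7 lie together near 90 and 84 CPM per kilobase, and Fgf20 is lowest at 0.310.

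In order of per-length level the counted members were Fgfr2, Fgf7, Fgfrl1, Fgfr1, Fgfr3, Fgf1 and Fgf2. The ranges over the 8 mice overlapped between Fgfr2 and Fgf7, between Fgfr1 and Fgfr3 and between Fgf1 and Fgf2, so the ranges do not separate these neighbors. Within single mice, Fgfr1 lay above Fgfr3 in 8 of 8, Fgf1 above Fgf2 in 7 of 8 and Fgfr2 above Fgf7 in 5 of 8. The other neighbors did not overlap, with Fgf7 2.20-fold above Fgfrl1, Fgfrl1 2.03-fold above Fgfr1 and Fgfr3 4.13-fold above Fgf1. The exon length of Fgfr2 counts every annotated exon. With the length of the longest transcript instead, the levels were 209 CPM per kilobase for Fgfr2 and 102 for Fgf7, in the same order but farther apart. How near these genes lie thus depends on the length used, and the overlaps and mouse counts above are for the joined exons.

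Fgf1 and Fgf2, broad-acting ligands that lack a classical secretion signal, were the lowest and most variable members. Fgf1 had 13.0, 23.7, 11.96 and 20.5 CPM in CTR1 to CTR4 and 11.2, 9.27, 4.70 and 22.5 CPM in cKO1 to cKO4. In 3 cKO mice Fgf1 lay below every CTR mouse, while cKO4 lay among the highest mice. Fgf2 had 7.41, 9.99, 8.04 and 1.69 CPM in CTR1 to CTR4 and 8.33, 1.42, 9.62 and 10.4 CPM in cKO1 to cKO4. Fgf2 was thus low in 1 mouse of each genotype, CTR4 with 63 counts and cKO2 with 50, and the other 6 mice had 229 to 398 counts.

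Among mice, the SD of log2 CPM was 1.16 for Fgf2 and 0.78 for Fgf1, larger than that of 96.5% and 96.0% of the genes within 2-fold of their level. The SD was 0.33 for Fgfr3 and 0.28 for Fgfrl1, exceeding 87.7% and 82.0% of genes of similar level. For Fgf7 (0.19), Fgfr2 (0.17) and Fgfr1 (0.13) the corresponding shares were 59.6%, 47.4% and 30.9%. The abundant ligand and the 2 abundant kinases therefore varied about as much as, or less than, other genes of their level, whereas the scarce ligands varied more.

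**Figure D2:**
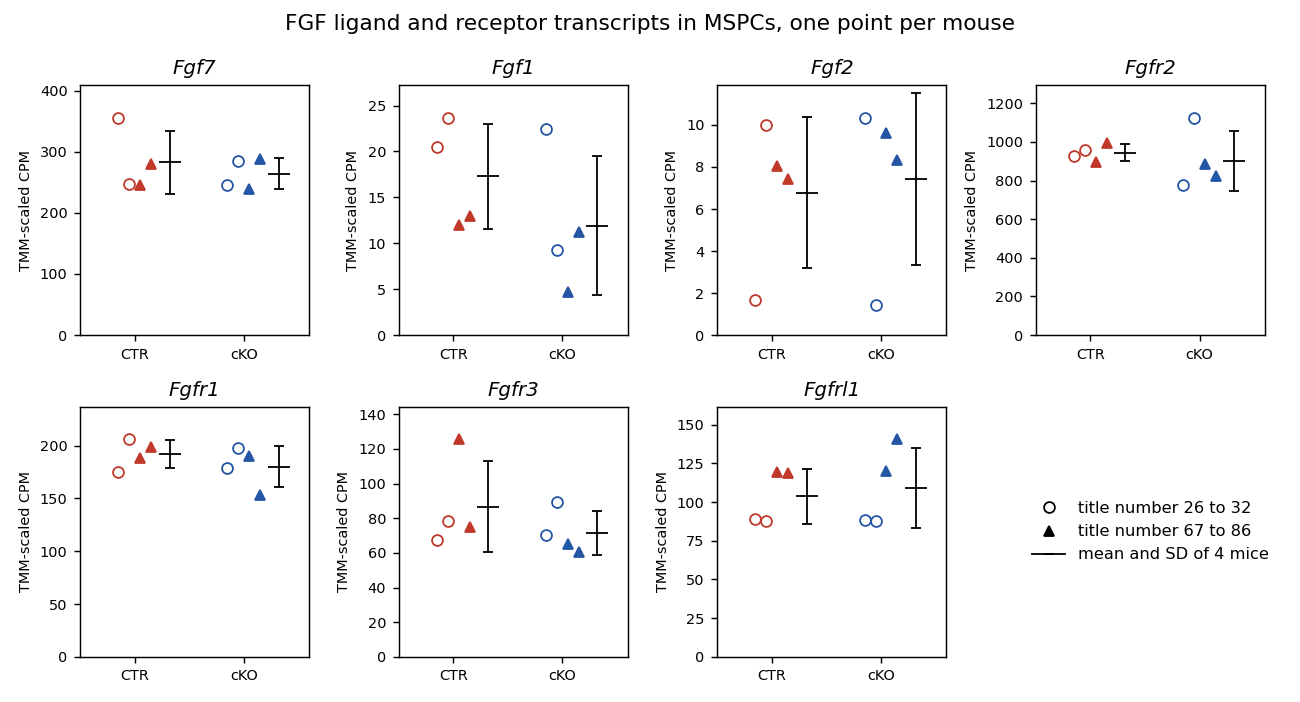
TMM-scaled CPM of the 7 counted members in each mouse, on linear axes from 0, for CTR (red) and cKO (blue), with circles for title numbers 26 to 32, triangles for 67 to 86, and black bars for the mean and SD of 4 mice. Fgf2 is near 1.5 CPM in CTR4 and cKO2, and for Fgfrl1 all triangles lie above all circles.

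The annotation places another gene over part of several members, and the sources used here do not state whether counting used strand. Nudt6, on the opposite strand, overlaps 9.44% of the exon bases of Fgf2 and had 55 to 149 counts per library. Its highest counts, not scaled for depth, were 149 and 120 in cKO2 and CTR4, the mice with the fewest Fgf2 counts. The CTR4 library was deep, at 37682465 counts in total. In cKO1, with 272 Fgf2 counts, Nudt6 had 106 counts in a total of 32724428. Relative to the totals, Nudt6 in CTR4 was thus not above that in cKO1. The mouse with the most Fgf2 counts, cKO4 (398), had 113 Nudt6 counts. Without strand the reads of the overlap cannot be told apart, and their part in the Fgf2 counts was not tested. G630022F23Rik, on the opposite strand, covers 13.9% of the Fgfr3 exon bases and had 83 to 150 counts, against 1966 to 4041 for Fgfr3. Ctbp2 overlaps 3.04% of the Fgfr2 exon bases on the same strand, where strand cannot separate reads. It had 1414 to 2151 counts, against 26941 to 39499 for Fgfr2. Gm16159, on the opposite strand, overlaps 1.66% of the Fgfr1 exon bases. It had 3, 66 and 56 counts in CTR1 to CTR3 and 0 in CTR4 and every cKO library.

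Between genotypes, no FGF member passed the test. Of the 14598 genes with a count in every library, 0 (0.0%) had an adjusted p under 0.05 with edgeR's quasi-likelihood test and Benjamini-Hochberg adjustment, 646 (4.43%) had an unadjusted p under 0.05, and the groups did not overlap for 2.62%. Of the 7 counted members, 0 were called, 0 had an unadjusted p under 0.05, and for 0 did the groups not overlap. DESeq2's Wald test called 23 genes and its likelihood ratio test with a title number term 47, again with 0 members. The adjusted p was 0.999 for each member. In a bulk sample, fewer cells that express a gene and less RNA per cell cannot be told apart.

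Among the receptors the intervals were narrowest for Fgfr1 and Fgfr2. The log2 fold change of cKO against CTR was -0.07 for Fgfr2 (SE 0.12, 95% interval -0.34 to 0.21), with mean levels of 903 ± 155 CPM in cKO and 945 ± 43.0 CPM in CTR (SD, n = 4 mice each). Fgfr1 was at -0.09 (SE 0.10, -0.32 to 0.14), with 180 ± 19.2 CPM in cKO and 192 ± 13.5 CPM in CTR. Fgfr3 was at -0.28 (SE 0.20, -0.73 to 0.17), and at -0.05 without CTR replicate 3, its highest mouse. Fgfrl1 was at 0.07 (SE 0.18, -0.33 to 0.47), with 109 ± 25.9 CPM in cKO and 104 ± 17.8 CPM in CTR. The intervals of Fgfr1 and Fgfr2 leave room for a fall of 0.32 or 0.34 on the log2 scale and for smaller rises.

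Among the ligands, the log2 fold change of Fgf7 was -0.10 (SE 0.13, -0.40 to 0.20), with 264 ± 25.4 CPM in cKO and 283 ± 51.4 CPM in CTR. Fgf1 was at -0.54 (SE 0.43, -1.49 to 0.42), with 11.9 ± 7.55 CPM in cKO and 17.3 ± 5.73 CPM in CTR. It was -0.27 without cKO replicate 3, the lowest mouse. Without cKO replicate 4, the high cKO mouse, the value was -1.04 (unadjusted p = 0.0194, adjusted p = 1.00, edgeR quasi-likelihood, Benjamini-Hochberg). Fgf2 was at 0.13 (SE 0.62, -1.25 to 1.52), an interval that spans large differences either way, and at 0.15 (SE 0.26) without CTR4 and cKO2. Over the 7 members the median log2 fold change was -0.09 and the median of the absolute values 0.10, against -0.0013 and 0.14 over all genes tested.

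Within the title number ranges, the difference of mean log2 CPM between cKO and CTR for Fgf1 was -0.61 in 26 to 32 and -0.77 in 67 to 86. Fgf7 differed by -0.17 and -0.0048, Fgfr1 by -0.01 and -0.18, and Fgfr2 by -0.01 and -0.14. For Fgfr3 the difference was 0.13 in 26 to 32 and -0.63 in 67 to 86. The interaction term of Fgfr3 was -0.81 (SE 0.34, unadjusted p = 0.0457, adjusted p = 1.00, edgeR quasi-likelihood, Benjamini-Hochberg), in a test that called 0 of 14598 genes and gave 3.44% of them an unadjusted p under 0.05. Of the CTR mice in 67 to 86, CTR1 had 75.2 CPM of Fgfr3 and CTR3, the highest mouse, 125 CPM. The interaction was not refitted without CTR3. The difference for Fgf2 was -0.09 and 0.21, and that for Fgfrl1 was -0.0050 and 0.13.

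**Figure D3:**
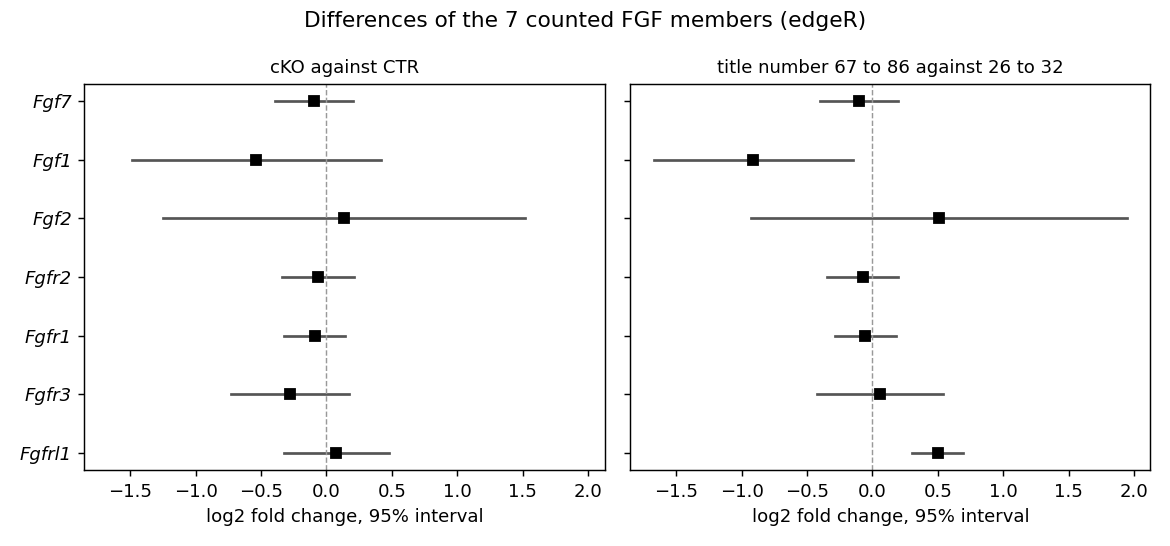
Log2 fold change (square) with 95% interval (line) of the 7 counted members for cKO against CTR (left) and for title numbers 67 to 86 against 26 to 32 with genotype as a term (right), from edgeR. On the left every interval crosses 0, and on the right those of Fgfrl1 (0.31 to 0.69) and Fgf1 (-1.67 to -0.15) do not.

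By title number Fgfrl1 separated without overlap, and no member passed the test in edgeR. In the fit of numbers 67 to 86 against 26 to 32, with genotype as a term, 2 of 14598 genes (0.0137%) were called, 1694 (11.6%) had an unadjusted p under 0.05, and the ranges did not overlap for 6.87%. Of the 7 members 0 were called, 2 (Fgfrl1 and Fgf1) had an unadjusted p under 0.05, and the ranges did not overlap for 1, Fgfrl1. By direction, 5.1% of all genes had an unadjusted p under 0.05 with higher and 6.5% with lower values in 67 to 86, and 3.43% lay entirely higher there, as Fgfrl1 did. Several other measures moved with the ranges. Libraries numbered 26 to 32 had 19363 to 20684 genes with a count, against 18366 to 18750 in 67 to 86, and the summed level of 8 osteoblast markers was 11583 to 14584 CPM against 8554 to 11278 CPM. Ibsp alone had 10748 to 13798 CPM against 7756 to 10368 CPM and made up most of that sum. Of the 7 osteoblast markers tested 4 had higher and 3 lower values in 67 to 86. The 2 with an unadjusted p under 0.05 went opposite ways, Ibsp at a log2 fold change of -0.44 (SE 0.12) and Alpl at 0.34 (SE 0.12). The smooth muscle gene Myh11 was at 8.18 to 18.9 CPM against 0 to 3.79 CPM, while the summed level of 8 smooth muscle and pericyte markers overlapped, at 429 to 449 CPM against 381 to 437 CPM. Of the 6 tested markers of that list 2 had higher and 4 lower values, with the pericyte gene Rgs5 at a log2 fold change of -1.49 (SE 0.23). Of the 8 MSPC markers, 2 had higher and 6 lower values. The 2 with an unadjusted p under 0.05 were the adipocyte-lineage gene Adipoq at 0.45 (SE 0.11) and Kitl at -0.36 (SE 0.15). The part of these measures in the differences below was not tested.

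Fgfrl1 lay at 87.5 to 89.1 CPM in the mice numbered 26 to 32 and at 119 to 141 CPM in those numbered 67 to 86. The log2 fold change was 0.50 (SE 0.09, 95% interval 0.31 to 0.69, unadjusted p = 0.00026), and the adjusted p was 0.112 with edgeR's quasi-likelihood test and Benjamini-Hochberg adjustment. DESeq2's Wald test, which called 380 genes, gave Fgfrl1 an adjusted p of 0.000217, and over all alternatives the adjusted p ranged from 0.000217 to 0.480 with log2 values from 0.44 to 0.53. The difference was 0.43 among CTR and 0.56 among cKO mice, so the same direction was seen in each genotype. Fgf1 went the other way, at -0.91 (SE 0.34, unadjusted p = 0.0242, adjusted p = 0.357 with the same edgeR test and adjustment). The ranges of Fgf1 overlapped, with 9.27 to 23.7 CPM in 26 to 32 and 4.70 to 13.0 CPM in 67 to 86, and the value was -0.59 without cKO replicate 4.

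The other members were at 0.51 for Fgf2 (SE 0.64, -0.93 to 1.95), -0.10 for Fgf7 (SE 0.13), -0.05 for Fgfr1 (SE 0.10), -0.07 for Fgfr2 (SE 0.12) and 0.06 for Fgfr3 (SE 0.21). Fgf2 turned to -0.29 when CTR4 and cKO2, both numbered 26 to 32, were left out, so the sign of its value rested on these mice. Fgfr3 turned to -0.19 without CTR replicate 3.

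To place the members in their pathway, 69 further genes in 5 lists were read from the same fits, of which 45 were tested. Between genotypes 0 of the 45 were called and 2 (Dusp5 and Ptpn11) had an unadjusted p under 0.05 (4.44%, against 4.43% of all genes tested), with 17 log2 values above and 28 below 0 and a median of -0.08. By title number 0 were called by edgeR, 10 had an unadjusted p under 0.05 (22.2%, against 11.6% of all genes tested), 2 of them higher and 8 lower in 67 to 86. The ranges did not overlap for Sdc3 and Frs2, 4.44% of the 45 against 6.87% of all genes tested. With DESeq2's Wald test Sdc3 was called (adjusted p = 0.0193).

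Among coreceptors and binding proteins, the syndecans Sdc1 and Sdc2, transmembrane carriers of heparan sulfate, had the highest per-length levels (221 and 167 CPM per kilobase). By the length of the joined exons these lay above that of any FGF receptor. With the longest transcript as length Fgfr2 was at 209 CPM per kilobase, and the syndecan levels were not computed that way. Klb, Kl and Fgfbp1, which encode the coreceptors of endocrine FGFs and an FGF carrier protein, had 0 counts in all libraries. Sdc3 lay at 81.1 to 91.7 CPM in 26 to 32 and at 110 to 152 CPM in 67 to 86 (log2 fold change 0.48, SE 0.11), in the direction of Fgfrl1. The glypicans Gpc6 and Gpc1, heparan sulfate carriers with a lipid anchor, were at -0.57 (SE 0.17) and -0.38 (SE 0.12), with overlapping ranges. For Gpc6 the difference of mean log2 CPM was -0.132 among CTR and -0.9997 among cKO mice, with an interaction term of -0.86 (SE 0.18, unadjusted p = 0.0015, adjusted p = 1.00, edgeR quasi-likelihood, Benjamini-Hochberg).

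Among the 9 tested heparan sulfate enzymes, Ext2, a subunit of the chain polymerase, and Sulf1, an extracellular 6-O-sulfatase, were highest at 43.4 and 32.7 CPM per kilobase. By title number Sulf2 was at -0.59 (SE 0.25), Sulf1 at -0.35 (SE 0.15) and the 2-O-sulfotransferase gene Hs2st1 at -0.27 (SE 0.11), each with an unadjusted p under 0.05 and overlapping ranges. All 10 adaptor and transducer genes were tested, with Shc1 (52.0 CPM per kilobase) and Gab1 (23.4) highest. Frs2, the adaptor that docks on FGF receptors, lay at 77.4 to 99.9 CPM in 26 to 32 and 68.3 to 75.6 CPM in 67 to 86 (log2 fold change -0.31, SE 0.10). The phosphatase gene Ptpn11 was at -0.30 (SE 0.12) between genotypes and at 0.27 (SE 0.08) by title number.

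Feedback inhibitors and targets of FGF-ERK signaling were led by Spry1, a Sprouty inhibitor, at 272 CPM per kilobase, and Dusp6, an ERK phosphatase, at 19.0 CPM per kilobase. By title number 11 of the 12 tested genes had negative log2 values and the median was -0.28, against 7438 negative values among the 14598 genes tested and a median of -0.01 over them. Of these Spry4 (-0.46, SE 0.17) and Dusp5 (-0.94, SE 0.40) had an unadjusted p under 0.05, and 0 were called. Dusp5, a nuclear ERK phosphatase, was at 1.31 between genotypes (SE 0.48, unadjusted p = 0.0216, adjusted p = 0.999 with edgeR's quasi-likelihood test and Benjamini-Hochberg adjustment), with 7.41 to 17.5 CPM in cKO and 1.89 to 10.3 CPM in CTR. The Dusp5 ranges overlapped between genotypes.

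**Figure D4:**
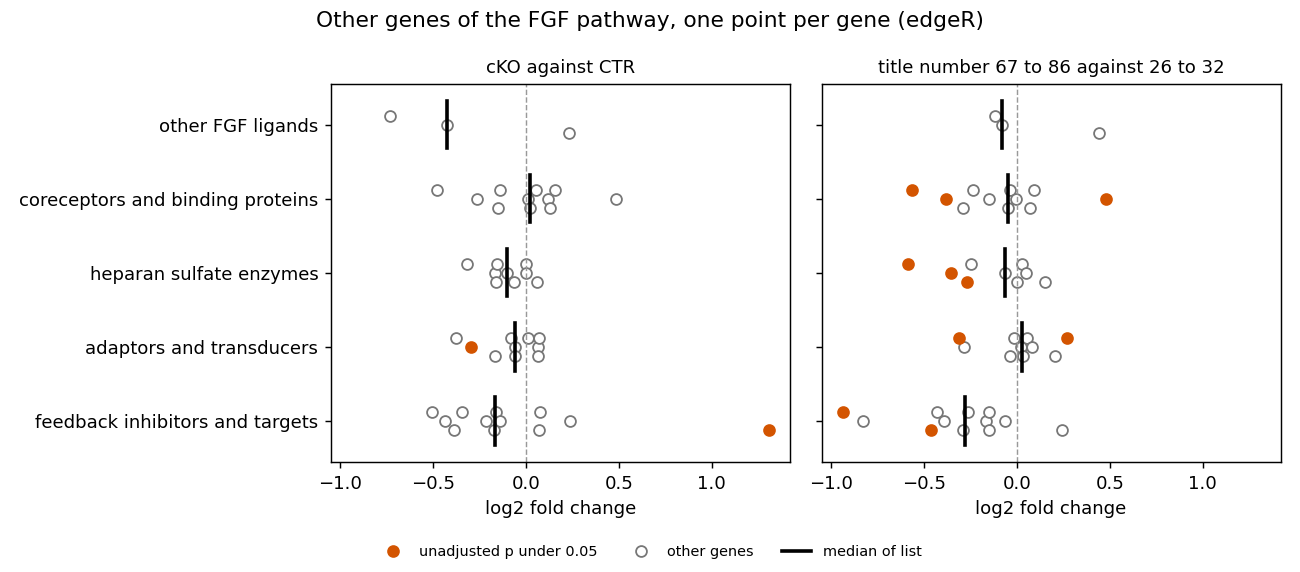
Log2 fold changes of the 45 tested pathway genes by list, for cKO against CTR (left) and title numbers 67 to 86 against 26 to 32 (right), with filled points for an unadjusted p under 0.05 and a bar for the median of each list. The medians of the feedback list are -0.17 on the left and -0.28 on the right, and 11 of its 12 points on the right lie below 0.

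Across the 8 libraries and 9405 genes averaging 10 CPM or more, the genes whose log2 CPM followed the 3 members of highest per-length level most closely were listed as a description, since all values share library and depth. For Fgfr2 they were Golgb1 (Pearson's r = 0.96, Spearman's rho = 0.98) and Thsd4 (0.94 and 0.93), with r of 0.93 and 0.82 after leaving out cKO2 and cKO4. For Fgf7 they were Nos1ap (0.94 and 0.83) and Ppfibp2 (0.93 and 1.00), with r of 0.80 and 0.90 without CTR4 and cKO3. For Fgfrl1 they were Anxa2 (0.97 and 0.98) and Arhgap1 (0.97 and 0.83), with r of 0.97 and 0.95 without CTR2 and cKO1. These mice lie in different title number ranges, so leaving them out keeps the split of Fgfrl1 between the ranges. The part of that split in the Fgfrl1 correlations was not tested. An r above 0.9 was reached by 68 genes for Fgfrl1, 8 for Fgf7 and 5 for Fgfr2.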

How the data were processed

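Per the methods and the labels, the authors trimmed paired reads from polyA RNA, aligned them to GRCm38 (mm10) with HISAT2, counted them per GENCODE gene with HTSeq-count, and deposited raw read counts without normalization. Their own test was a DESeq2 likelihood ratio test with a batch correction, whose batches are not given in the sources used here. Symbols were matched to 52403 of the 52636 identifiers, and positions and exon lengths are those of GENCODE M21.

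Here, TMM-scaled counts of the 14598 genes that no library lacked were tested with edgeR 4.0.16 under R 4.3.3 (glmQLFit and glmQLFTest). The genotype fit had no covariate and the title number fit had genotype as a term. P-values were adjusted by Benjamini-Hochberg over all genes tested, with a threshold of 0.05. SE was the log2 fold change divided by the square root of F. Log2 CPM used a prior count of 2. The scripts were tested on simulated data. Totals of 31047344 to 38216877 counts limit precision for scarce genes, and floors cover counting error only. Alternatives were RLE scaling, library totals, 2 other filters, DESeq2 1.42.0, the replicate number as a block, and each library left out. Leaving out CTR4 and cKO2 together was chosen after seeing the data. Members and lists were chosen with earlier results of these data known. Named were all members, the 2 highest genes of each list, those with an unadjusted p under 0.05 (at most 6 a list), genes overlapping a member, Cxcr4, marker genes, and the 2 closest correlates of 3 members. Single-cell data were not analysed here.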

Additional observations from a re-analysis of the deposited data

Results flagged for a closer look

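Fgf2 stood out in 1 mouse of each genotype. Among the 4 CTR mice, CTR4 was the lowest at 1.69 CPM, and on the log2 CPM scale its gap to the next mouse was 0.830 of the group's range, just above Dixon's 95% critical value for 4 samples. Among the 4 cKO mice, cKO2 was the lowest at 1.42 CPM, with a gap of 0.889 of the range on the same scale. On the linear CPM scale the ratios were 0.689 and 0.774, below that value, so both flags depend on the log scale. Both mice have title numbers from 26 to 32, and the other mice of that range, CTR2 and cKO4, were the highest of their genotype at 9.99 and 10.4 CPM. In all, 14 groups of 4 mice were examined for the 7 counted members, for which chance gives about 0.7 flags, and 2 were found.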

How the results depend on the processing

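Between genotypes 0 FGF members and 0 other pathway genes were called under any of 17 alternatives. The number of genes called was 1 with edgeR's filterByExpr or no filter, 23 with DESeq2's Wald test, 47 with its likelihood ratio test with a title number term, and 0 to 0 over single libraries left out. Over those, log2 values ran from -0.075 to 0.16 for Fgfrl1, -0.19 to 0.48 for Fgf2, -0.16 to 0.030 for Fgf7 and -0.19 to 0.00098 for Fgfr2, crossing 0, while Fgf1 (-1.04 to -0.27), Fgfr1 and Fgfr3 stayed negative. By title number, the genes called were 1 with RLE scaling, 4 with no filter, 380 with DESeq2's Wald test, 0 with no genotype term, 1 without CTR4 and cKO2 and 0 to 4 over single libraries left out. DESeq2's Wald test called 1 member (Fgfrl1, 0.50) and 1 other pathway gene. Leaving out single libraries gave -0.19 to 0.20 for Fgfr3, -0.18 to 0.032 for Fgf7, -0.11 to 0.022 for Fgfr1 and -0.16 to 0.056 for Fgfr2. Without CTR4 and cKO2 together Fgf2 was at -0.29, Fgf7 at 0.092 and Fgfr2 at 0.059. Apart from the samples or genes removed, the cause was not tested. With the longest transcript as length, per-length levels were 102 for Fgf7, 36.9 for Fgfr1, 209 for Fgfr2 and 18.6 CPM per kilobase for Fgfr3, and the order of the 7 members was the same under all 10 alternatives.

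Same-numbered CTR and cKO libraries lie in the same title number range, and the labels do not say that a replicate number marks a shared litter, batch or day. The correlations of their deviations from the genotype means were 0.131, 0.176, 0.0844 and 0.0572, and 3 of the 4 pairs matched best with each other. The deviations were not centered by title number range, so differences between the ranges also enter these matches. The matches are at most a hint from the data, not the design. As 2 correlations were under 0.1, the numbers were not taken to pair the samples. With the replicate block 0 genes were called and 812 had an unadjusted p under 0.05, against 646 without it. Depth limits Fgf2 (50 counts in its lowest library) and the 3 members at 0, and 4 mice per genotype limit all tests.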
